A study of Mus musculus with 9 samples.

Results

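Gene expression was compared between podocytes given advanced glycation end products (AGEs) and podocytes left untreated. The comparison took every library that the labels place in these groups, 3 AGEs libraries and 3 control libraries, which are 6 of the 9 libraries of the series. Of 55385 genes in the deposited table, 17680 had enough counts to be tested. All libraries came from the mouse podocyte line MCP5 with the genotype WT (wild type). The AGEs group was given AGEs at 400 µg/mL, and the treatment of the control group is labelled blank. The other 3 libraries, given high glucose at 50 mmol/L, enter only the estimate of the spread and the values set side by side below. How long the cells were treated, and in which carrier, the labels used here do not say. MCP5 is 1 line kept in culture, and the titles number the libraries without naming separate cultures, so the replicates may be technical and each p-value describes the spread among these libraries alone.

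AGEs form when sugars react with proteins and lipids without an enzyme, and they accumulate in diabetes. The receptor RAGE, encoded by Ager, binds AGEs and S100 proteins and is known to signal to the transcription factor NF-kB, which drives chemokine genes, while other receptors clear AGEs from the surroundings. Oxidants and electrophiles free the transcription factor NRF2, encoded by Nfe2l2, from its inhibitor KEAP1, and NRF2 then drives genes of glutathione synthesis, glutathione S-transferases and NADPH supply. Metallothioneins are small zinc-binding proteins whose genes respond to zinc through the factor MTF1. In the kidney, the foot processes of podocytes hold the glomerular filter and rest on an actin skeleton.

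The label of the line was checked against markers. Of 49 podocyte markers listed, 36 passed the filter on low counts, and 8 of the 13 others had 0 counts in all 6 libraries. Those at 0 included the podocyte transcription factors Wt1, Tcf21 and Lmx1b and the cation channel gene Trpc6, so the label rests on the markers that were present, such as Synpo, Podxl, Cd2ap and Actn4. Markers of other cell types were also measured. Levels of single genes are in CPM (normalised read counts, scaled to library size with TMM factors). Summed levels of a list were scaled to library size without TMM factors. All 12 parietal epithelial markers were tested, with a summed level of 1087 to 1127 in control and 1046 to 1256 in AGEs. The 17 tubule markers summed to 243 to 256 in control and 210 to 330 in AGEs. Of these, 8 were tested, and 6 of the others, among them Umod and Aqp2, were at 0 in the 6 libraries. The 15 endothelial markers, 7 of them tested, summed to 14.9 to 19.3 and 11.4 to 15.2, with Kdr at 0. The 17 mesangial and fibroblast markers, 11 of them tested, summed to 63.5 to 75.6 and 55.9 to 66.2, with Ren1 at 0. The 15 leukocyte markers, 12 of them tested, summed to 84.6 to 97.4 and 84.7 to 96.6, with Cd3e at 0. Over the 12 tested, the median difference of AGEs library 3 from AGEs libraries 1 and 2 was −2.17 on the log2 scale. The median log2 fold change of these 12 leukocyte markers between AGEs and control was 0.89, with 0 above and 0 below control in every library. Without AGEs library 3, 6 of the 12 lay above control, against 15.7% of all genes. No marker of these types was called between AGEs and control, and the part of these levels in the results was not tested. In bulk RNA, fewer cells of a type and less RNA per cell cannot be told apart.

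AGEs library 3 stood apart from AGEs libraries 1 and 2. On log2 CPM it differed at least 2-fold from the mean of the other 2 AGEs libraries for 2438 of 17680 genes (13.8%), 1003 higher and 1435 lower. The same count for the other 5 libraries, each against the other 2 of its group, ran from 1883 (10.7%, control library 2) to 2275 (12.9%, AGEs library 1). Among the 10758 genes with a mean of at least 5 CPM the count was 225 (2.09%) for AGEs library 3, 192 (1.78%) and 169 (1.57%) for AGEs libraries 1 and 2, and 162 (1.51%), 167 (1.55%) and 194 (1.8%) for control libraries 1 to 3. So AGEs library 3 had the highest count of the 6 on both sets of genes, by a margin that was small beside the differences every library showed. The root mean square of the log2 difference was 0.40 between AGEs libraries 1 and 2, 0.48 between 1 and 3 and 0.44 between 2 and 3, against 0.37 to 0.43 between control libraries and 0.37 to 0.52 between an AGEs and a control library. AGEs libraries 1 and 2 were therefore no closer to each other than some AGEs libraries were to control libraries. In a principal component analysis of the 6 libraries, the first component (30.5% of the variance) placed the AGEs libraries at 6.57 to 20.1 and the control libraries at −26.8 to −3.44. The second component (24.7%) placed AGEs library 3 at −26.9 and AGEs libraries 1 and 2 at 19.9 and 6.38. Over all 9 libraries and all genes tested, the second component (11.9%) placed AGEs library 3 at 82.8. Every other library lay between −46.2 (AGEs library 1) and 9.11 (control library 1) on it. The weight of AGEs library 3 among the 9 libraries in a limma voom fit with sample quality weights was the lowest, 0.384, ahead of control library 3 at 0.614. Its total count was the largest of the 6 (73427057, against 62193640 to 72299415 in the others).

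**Figure D1:**
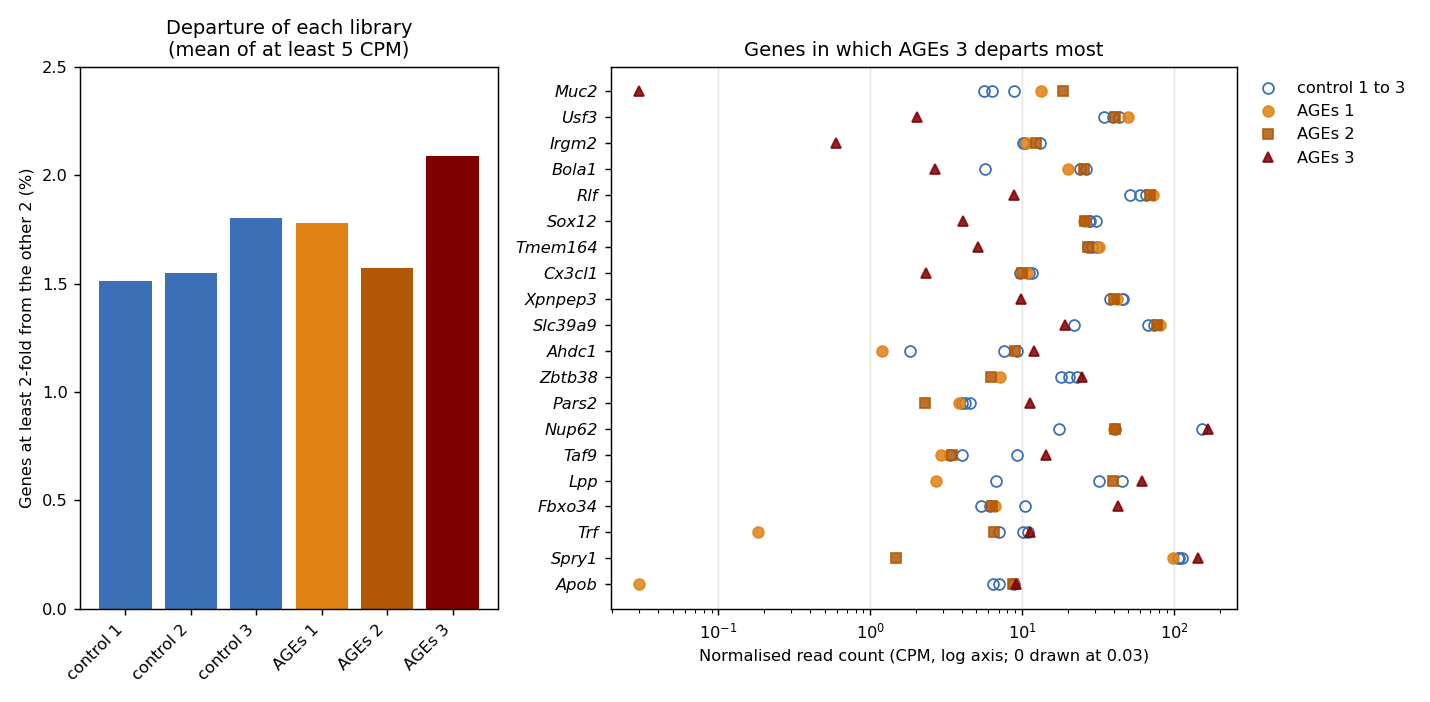
Departure of single libraries. Left, the share of genes (%) at least 2-fold from the mean of the other 2 libraries of the group, among genes with a mean of at least 5 CPM, from 1.51% (control library 1) to 2.09% (AGEs library 3); right, the CPM (log axis, 0 drawn at 0.03) of the 20 genes in which AGEs library 3 lay farthest from AGEs libraries 1 and 2 while outside the range of the other 5 libraries.

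In several of the genes behind this departure 1 library lay far from the other 5. Among the 10 lowest in AGEs library 3, Muc2, which encodes a secreted gel-forming mucin, was at 13.4 and 18.7 CPM in AGEs libraries 1 and 2 and at 0 in library 3, with 5.57, 6.32 and 8.82 CPM in control. Usf3 was at 49.8, 41.1 and 2.02 CPM in AGEs libraries 1 to 3 and between 34.8 and 43.5 CPM in control, so only 1 of the 6 libraries was low. Irgm2, an interferon-induced GTPase, was at 10.6, 12.4 and 0.597 CPM (10.2 to 13.2 CPM in control). The zinc finger gene Rlf was at 73.1, 69.4 and 8.88 CPM (51.6 to 65.8 CPM in control), and the others of the 10 lay 2.04 to 3.07 lower on the log2 scale (Bola1, Sox12, Tmem164, Cx3cl1, Xpnpep3 and Slc39a9). Bola1 and Slc39a9 were also low in control library 2, at 5.70 and 21.8 CPM. Among the 10 highest, Fbxo34 was at 6.59, 6.32 and 42.5 CPM in AGEs libraries 1 to 3 and 5.35 to 10.5 CPM in control, a pattern of 1 high library. In other genes of this set the outlying library was not library 3. Apob, the apolipoprotein B gene, was at 0, 8.68 and 9.12 CPM and Spry1, a feedback inhibitor of receptor kinase signalling, at 99.2, 1.48 and 145 CPM, so that Apob was low in AGEs library 1 and Spry1 in AGEs library 2, while control lay at 6.47 to 8.87 and 107 to 114 CPM. None of these 20 genes was called between AGEs and control.

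At an adjusted p under 0.05 in edgeR, 15 of 17680 genes were called between AGEs and control (0.0848%), 9 higher (0.0509%) and 6 lower (0.0339%) in AGEs. The 9 that rose were the glutathione S-transferases Gsta1, Gsta3 and Gsta4, the quinone reductase Nqo1, the pentose phosphate enzyme Pgd, the tricarboxylic acid cycle enzyme Suclg2, the basement membrane gene Nid1, the actin regulator Eps8 and the centrosomal gene Fgfr1op. The 6 that fell were Nanp, Zfp784, Dleu2, the metallothioneins Mt1 and Mt2, and Cd2bp2. In all 15 the 3 AGEs libraries did not overlap with the 3 control libraries, a pattern seen in 9.47% of all genes in the upward and 9.73% in the downward direction. The genes were called on these same libraries, which favours that pattern, so it adds no support to the calls. Over all genes the median was −0.0047 on the log2 scale, with 1143 genes higher and 1047 lower at an unadjusted p under 0.05. The count depended on the tool, since DESeq2 called 196 genes higher (1.11%) and 129 lower (0.73%), all 15 among them. Which genes were called also rested on single libraries, while the number called ran from 10 to 21 with 1 library left out. Without control library 1, 5 of the 15 remained, without control library 2 or 3, 9 remained, without AGEs library 1 or 3, 12 remained, and without AGEs library 2, 10 remained. Nanp, Gsta4, Dleu2, Gsta3 and Cd2bp2 stayed called whichever of the 6 libraries was left out.

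**Figure D2:**
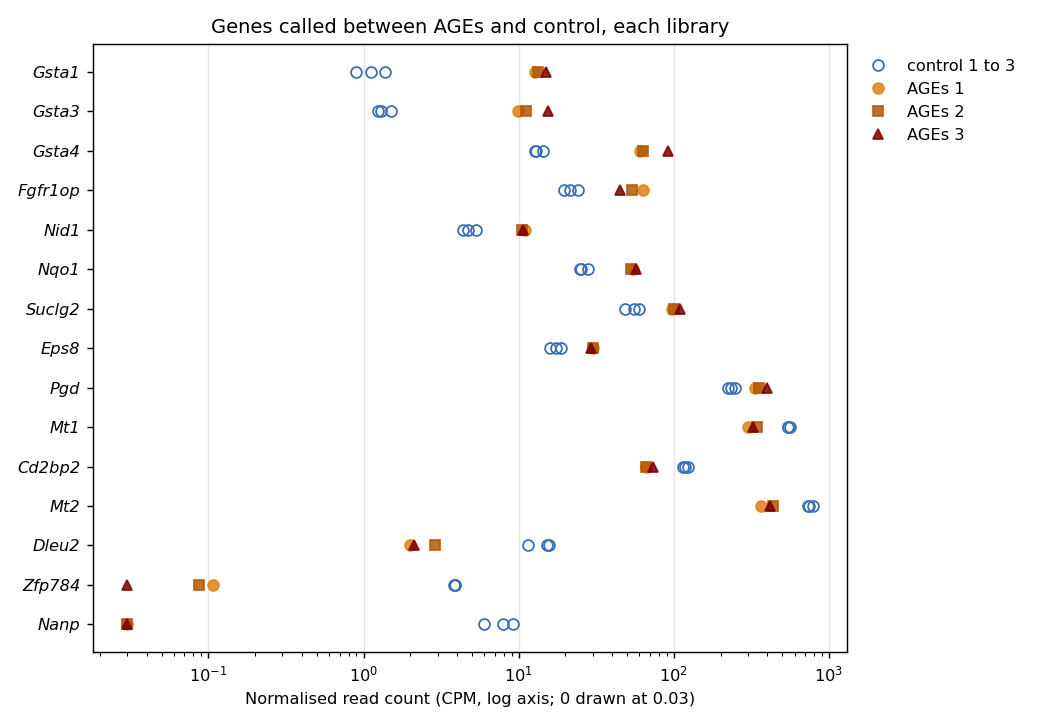
Normalised read counts (CPM, log axis, 0 drawn at 0.03) of the 15 called genes in each control library (open circles) and each AGEs library (filled symbols, 1 shape a library). In every gene the AGEs libraries lie on 1 side of the control libraries, from Gsta1 (12-fold higher) to Nanp (0 counts in the 3 AGEs libraries).

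AGEs library 3 lay outside the range of AGEs libraries 1 and 2 in 11 of the 15 called genes. The median absolute log2 difference from the control mean was 1.20, 1.14 and 1.14 in AGEs libraries 1, 2 and 3. These genes were called with library 3 in the fit, which favours genes with like values in the 3 AGEs libraries. The medians therefore cannot show whether library 3 responded like the other 2. Without library 3 the calls of Mt2 (adjusted p = 0.102), Pgd (0.0672) and Eps8 (0.0914) were lost, and the other 12 were kept.

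Among the called genes, the glutathione S-transferases had the largest rises. Gsta4, whose enzyme conjugates the lipid peroxidation product 4-hydroxynonenal to glutathione, was at 12.8, 14.3 and 13 CPM in control and 60.8, 62.8 and 91.3 CPM in AGEs. It rose 5.37-fold (log2 fold change 2.42, SE 0.18, adjusted p = 0.0015), and AGEs library 3 was the highest. Gsta3 was at 1.29, 1.51 and 1.24 CPM in control and 9.93, 11.1 and 15.5 CPM in AGEs. It rose 9.04-fold (log2 fold change 3.18, SE 0.28, adjusted p = 0.00408), again with library 3 the highest. Gsta1 was at 0.895, 1.38 and 1.12 CPM in control and 12.8, 13.3 and 14.9 CPM in AGEs, and rose 12-fold (log2 fold change 3.59, SE 0.37, adjusted p = 0.0104). In all 3 genes the lowest AGEs library was several times the highest control library. Gsta1 was no longer called when control library 1 (adjusted p = 0.0582) or 3 (0.0514) was left out. On the log2(FPKM + 1) scale, which understates changes at low levels, Gsta3 rose by 1.41. Gsta1 (ENSMUSG00000074183) lies on chromosome 9 of GRCm38 from 78230656 to 78242684 and Gsta4 (ENSMUSG00000032348) on the same chromosome from 78182774 to 78209349, both on the plus strand. Gsta3 (ENSMUSG00000025934) lies on chromosome 1 from 21240589 to 21265661, plus strand. Gsta1 has a near-identical neighbour, Gsta2, chosen here after its values were seen, which had a mean of 0.134 CPM in control and 1.86 CPM in AGEs (log2 fold change 3.79, SE 1.22, adjusted p = 0.317). Reads shared by these copies make the level of each uncertain.

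The promoter of Gsta3 is shown because the antioxidant response element, the DNA motif bound by NRF2, was searched for in it, and because Gsta3 is the called transferase with a match. The sequence is the 250 bases before the start of Gsta3 in RefSeq (GRCm38.p6, chr1:21240335-21240584, plus strand), with the match in capitals.
Gsta3: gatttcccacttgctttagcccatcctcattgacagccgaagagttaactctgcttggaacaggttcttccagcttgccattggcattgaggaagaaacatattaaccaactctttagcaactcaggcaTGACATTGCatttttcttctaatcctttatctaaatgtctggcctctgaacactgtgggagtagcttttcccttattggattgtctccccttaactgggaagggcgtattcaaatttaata
The motif was written as TGACNNNGC and searched on both strands. It matched once, from 121 to 113 bases before the start. The same letters were found in 10.2% of 32851 promoter windows. RefSeq windows were available for 11 of the 15 called genes, and 2 of the 11, Gsta3 and Mt2, held the motif. The windows of Gsta1 and Nqo1 did not hold it, and Gsta4 had no window. So the match is a description of the letters only.

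Nqo1 and Pgd, enzymes of quinone reduction and NADPH supply, rose less. Nqo1, which reduces quinones, was at 28.0, 25 and 25.1 CPM in control and 54.8, 53 and 57.4 CPM in AGEs. It rose 2.12-fold (log2 fold change 1.08, SE 0.12, adjusted p = 0.0148), a call lost without any 1 of the 3 control libraries (adjusted p up to 0.0758). Pgd, the 6-phosphogluconate dehydrogenase that yields NADPH, was at 233, 222 and 247 CPM in control and 336, 355 and 400 CPM in AGEs. It rose 1.55-fold (log2 fold change 0.64, SE 0.08, adjusted p = 0.0395), and the call was lost in 5 of the 6 leave-outs. Pgd is not a member of the list. Nqo1 (ENSMUSG00000003849) lies on chromosome 8 from 107388225 to 107403206 and Pgd (ENSMUSG00000028961) on chromosome 4 from 149149991 to 149166707, both on the minus strand.

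Of 46 members of the list of NADPH oxidases, NRF2 targets and antioxidant enzymes that were tested, 3 rose (Gsta1, Gsta4 and Nqo1) and 0 fell, against 0.0509% and 0.0339% of all genes. In 17 of the 46 (37.0%) every AGEs library was above every control library, against 9.47% of all genes, and in 1, Noxo1, below (2.17%, against 9.73%). The median log2 fold change of the members was 0.19. DESeq2 called 13 of them higher and 0 lower. Gclm, the modifier subunit of the enzyme that starts glutathione synthesis, was at 68.7, 51.4 and 65.2 CPM in control and 97.9, 111 and 125 CPM in AGEs (log2 fold change 0.85, SE 0.13, adjusted p = 0.0623). Its catalytic partner Gclc was at 100.3, 105 and 87.5 CPM in control and 146, 137 and 142 CPM in AGEs (0.54, adjusted p = 0.12). Slc7a11, the cystine importer, was at 25.4, 29.9 and 19.9 CPM in control and 44.7, 48.1 and 59.2 CPM in AGEs (1.01, adjusted p = 0.117). None of these 3 passed the test, although their groups did not overlap. Catalase (Cat) was at 94.1, 94.2 and 82.5 CPM in control and 123, 127 and 128 CPM in AGEs (0.48, adjusted p = 0.0623). The glutathione conjugate exporter Abcc1 was at 176, 180 and 184 CPM in control and 243, 238 and 238 CPM in AGEs (0.41, adjusted p = 0.0623). The NADPH enzymes G6pdx and Me1 had log2 fold changes of 0.35 and 0.31 (adjusted p = 0.14 and 0.178). Heme oxygenase (Hmox1) was at 352, 353 and 368 CPM in control and 411, 435 and 556 CPM in AGEs (0.39, adjusted p = 0.272). Txnrd1, thioredoxin reductase, was at 366, 364 and 343 CPM in control and 403, 533 and 760.4 CPM in AGEs (0.66, adjusted p = 0.272). The regulators themselves overlapped between the groups, with Nfe2l2 at 148 to 162 CPM in control and 156 to 172 CPM in AGEs and Keap1 at 32.5 to 35.2 and 30.8 to 37.1 CPM. Both were chosen after their values were seen. The NADPH oxidase gene Nox4 also overlapped, at 7.80, 6.92 and 6.32 CPM in control and 10.9, 7.55 and 14.9 CPM in AGEs (adjusted p = 0.381).

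**Figure D3:**
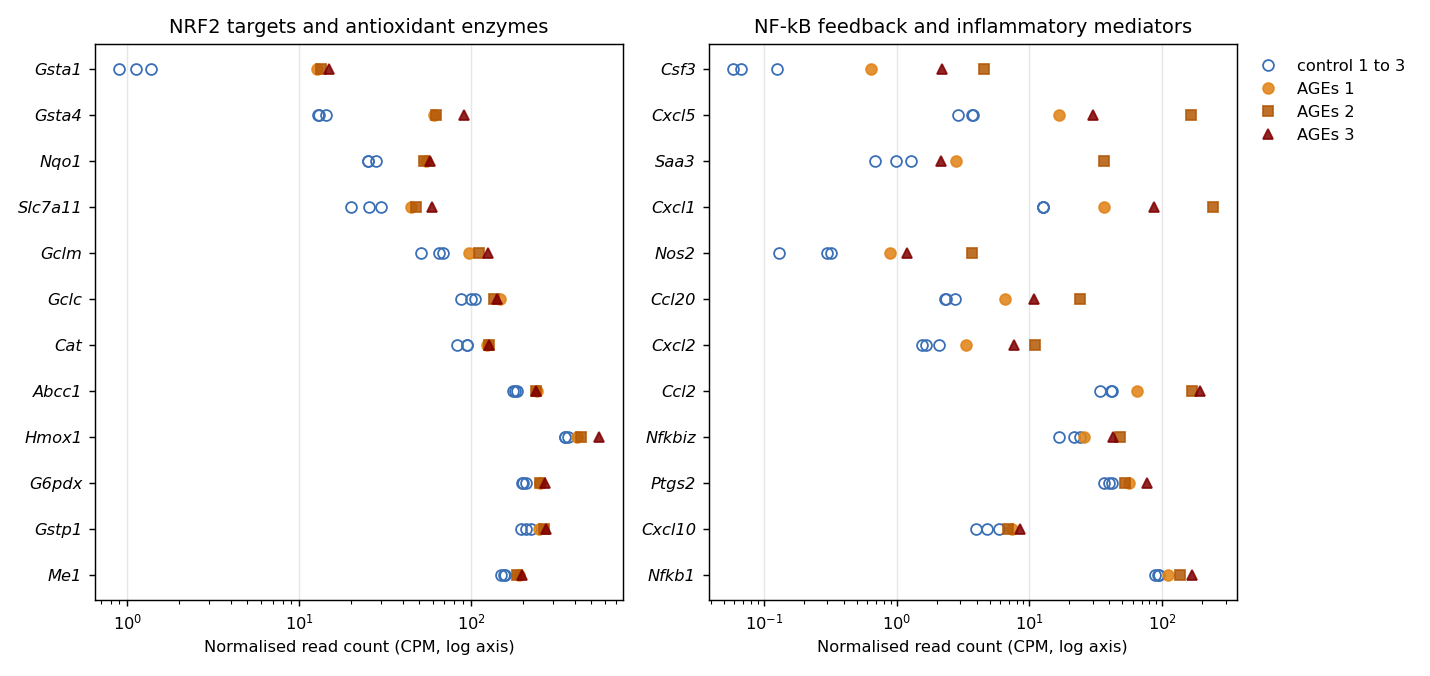
Normalised read counts (CPM, log axis) of the 12 members with the smallest p in the list of NADPH oxidases, NRF2 targets and antioxidant enzymes (left) and in the NF-kB list (right), in each control library (open circles) and AGEs library (filled symbols). The AGEs libraries lie close together on the left, while on the right AGEs library 2 is the highest for Csf3, Cxcl5, Saa3, Cxcl1, Nos2, Ccl20 and Cxcl2 and AGEs library 1 the lowest for all of these but Saa3.

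The metallothioneins Mt1 and Mt2 fell. Mt1 was at 548, 547 and 558 CPM in control and 302, 344 and 326 CPM in AGEs, a 1.70-fold fall (−0.77 on the log2 scale, SE 0.08, adjusted p = 0.0104). Mt2 was at 784, 733 and 741 CPM in control and 362, 438 and 418 CPM in AGEs, a 1.85-fold fall (−0.89 on the log2 scale, SE 0.12, adjusted p = 0.0374). In both genes the 3 control libraries were within a narrow range and each AGEs library was far below it. The call of Mt1 was lost without control library 1 (adjusted p = 0.0582), and that of Mt2 was lost whichever library was left out (adjusted p = 0.061 to 0.128), with log2 fold changes from −0.95 to −0.81 over the alternatives. Mt1 (ENSMUSG00000031765) lies on chromosome 8 from 94179082 to 94180327 and Mt2 (ENSMUSG00000031762) from 94172664 to 94173568, both on the plus strand. Mt2 overlaps Gm45774 on the opposite strand, whose counts were 3035 to 4139 in control and 2011 to 2306 in AGEs, and whether the counting used strand is not stated in the labels used here.

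Of 13 metallothioneins and zinc transporters tested, 2 fell, Mt1 and Mt2, and 0 rose, against 0.0339% and 0.0509% of all genes. The median log2 fold change was 0.07, and 3 members (23.1%) lay above and 3 (23.1%) below control in every library, against 9.47% and 9.73% of all genes. The zinc importer Slc39a10 was at 7.82, 8.70 and 6.79 CPM in control and 15.8, 13.9 and 19.0 CPM in AGEs, opposite in direction to the metallothioneins (log2 fold change 1.06, SE 0.16, adjusted p = 0.0623). The zinc exporter Slc30a1 was at 19.6, 20.7 and 19.2 CPM in control and 14.4, 13.7 and 17.9 CPM in AGEs (−0.37, adjusted p = 0.334). Mtf1 overlapped between the groups, at 16.7 to 20.9 CPM in control and 19.4 to 20.9 CPM in AGEs.

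The promoters of Mt1 and Mt2 are shown because both genes fell and both are known targets of MTF1, which binds metal response elements. Each is the 250 bases before the RefSeq start (GRCm38.p6, plus strand), chr8:94178839-94179088 for Mt1 and chr8:94172368-94172617 for Mt2, with matches in capitals.
Mt1: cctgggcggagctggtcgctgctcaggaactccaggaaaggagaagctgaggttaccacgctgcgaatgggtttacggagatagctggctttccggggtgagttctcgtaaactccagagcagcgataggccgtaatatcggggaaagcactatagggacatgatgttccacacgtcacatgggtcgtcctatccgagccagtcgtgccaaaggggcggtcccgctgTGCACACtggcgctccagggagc
Mt2: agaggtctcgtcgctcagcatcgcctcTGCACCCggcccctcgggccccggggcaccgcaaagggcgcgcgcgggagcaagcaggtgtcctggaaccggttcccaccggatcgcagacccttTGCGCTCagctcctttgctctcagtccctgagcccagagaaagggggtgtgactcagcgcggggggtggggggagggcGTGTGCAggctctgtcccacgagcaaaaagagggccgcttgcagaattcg
The motif was written as TGCACNC or TGCGCNC on both strands. Mt1 had 1 match, from 23 to 17 bases before the start, and Mt2 had 3, the nearest from 50 to 44 bases before it. These letters were present in 21.4% of the promoter windows, and in 4 of the 11 called genes with a window, Pgd and Suclg2 besides the metallothioneins.

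The largest fall was that of Nanp, the phosphatase that completes the synthesis of N-acetylneuraminic acid, a sialic acid. Nanp was at 6.01, 9.15 and 7.91 CPM in control and had 0 counts in all 3 AGEs libraries, while the high glucose mean was 8.74 CPM. With 1485 counts in control and none in AGEs, it was at least 521-fold lower, taking a floor of 3 counts over the group (adjusted p = 0.000222). In the deposited table, low counts took the value 4 (5976 entries in the 6 libraries) or 8 (3180) more often than 3 (1572) or 7 (1053), so 1 fragment may have added more than 1 count, and the floor is then too low. The Nanp call was lost in the voom fit with sample weights (adjusted p = 0.066). Nanp (ENSMUSG00000053916) lies on chromosome 2 from 151029685 to 151039398, minus strand. The neighbouring enzymes of the pathway, Nans and Cmas, chosen after their values were seen, had means of 152 and 40.0 CPM in control and 142 and 36.5 CPM in AGEs.

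Dleu2, a long noncoding RNA that hosts microRNA genes, was at 15.7, 15.2 and 11.4 CPM in control and 1.99, 2.88 and 2.11 CPM in AGEs. Dleu2 fell 6.06-fold (−2.60 on the log2 scale, SE 0.20, adjusted p = 0.0015), and the largest AGEs value was far below the smallest control value. Dleu2 (ENSMUSG00000097589) spans chromosome 14 from 61602839 to 61682373 on the minus strand and overlaps Trim13 on the opposite strand, whose counts were 747 to 1067 in control and 960 to 1218 in AGEs. Zfp784, a zinc finger gene, was at 3.86, 3.84 and 3.89 CPM in control and 0.107, 0.0869 and 0 CPM in AGEs (742 against 13 counts). The fall of Zfp784 was 58.4-fold (−5.87 on the log2 scale, SE 0.69, adjusted p = 0.0161), and the call was lost without any 1 control library or AGEs library 2 (adjusted p = 0.0585 to 0.0678). Zfp784 (ENSMUSG00000043290; chromosome 7, 5034439 to 5038446, minus strand) overlaps Zfp865 on the opposite strand, whose counts were 1014 to 1789 in control and 505 to 1202 in AGEs. Across the alternatives, Zfp784 ran from −6.41 to −1.32 on the log2 scale, Dleu2 from −2.78 to −0.82, the smallest sizes of both on the log2(FPKM + 1) scale.

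Cd2bp2, a component of the U5 small nuclear ribonucleoprotein of the spliceosome, fell less but evenly. It was at 114, 123 and 118 CPM in control and 66.4, 66.3 and 73.5 CPM in AGEs, a 1.73-fold fall (−0.79 on the log2 scale, SE 0.08, adjusted p = 0.00906). Cd2bp2 (ENSMUSG00000042502) lies on chromosome 7 from 127191660 to 127196000, minus strand. Below the threshold, the Ras-like gene Rasl11b was at 46.4, 49.5 and 46.5 CPM in control and 27.5, 26.3 and 29.0 CPM in AGEs (−0.78, adjusted p = 0.0648), the sedoheptulokinase gene Shpk at 6.88, 6.99 and 7.02 CPM and 4.28, 3.77 and 2.94 CPM (−0.93, adjusted p = 0.121), and the endothelial lipase gene Lipg at 33.2, 39.7 and 34.4 CPM and 22.1, 21.0 and 24.9 CPM (−0.66, adjusted p = 0.12). The groups of these 3 genes did not overlap, and DESeq2 called all 3 lower.

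Of the remaining genes that rose, Fgfr1op, a centrosome and centriole protein gene, was at 21.4, 23.9 and 19.5 CPM in control and 63.3, 53.9 and 44.8 CPM in AGEs. It was 2.5-fold higher (log2 fold change 1.32, SE 0.14, adjusted p = 0.0104), and here AGEs library 3 was the lowest of the 3. Suclg2, a subunit of succinyl-CoA ligase, was at 55.7, 59.8 and 48.3 CPM in control and 97.7, 99.6 and 109 CPM in AGEs (1.87-fold higher, SE of the log2 value 0.10, adjusted p = 0.0128). The Fgfr1op and Suclg2 calls were each lost without control library 1 (adjusted p = 0.0595 for both). Eps8, which caps and bundles actin filaments, was at 16.0, 18.6 and 17.5 CPM in control and 29.9, 30.004 and 29.1 CPM in AGEs, 1.71-fold higher (adjusted p = 0.0436). The 3 AGEs values of Eps8 were nearly equal, yet the call was lost in each of the 6 leave-outs (adjusted p = 0.086 to 0.165). Fgfr1op (ENSMUSG00000069135) lies on chromosome 17 from 8165501 to 8196804, plus strand, Suclg2 (ENSMUSG00000061838) on chromosome 6 from 95473009 to 95718800, minus strand, and Eps8 (ENSMUSG00000015766) on chromosome 6 from 137477245 to 137654876, minus strand.

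Among genes of NF-kB feedback and inflammation none passed the test, although many lay above control in every AGEs library. Of 41 members tested 0 were called, 20 (48.8%) were higher in all 3 AGEs libraries than in all 3 control libraries and 0 were lower, against 9.47% and 9.73% of all genes. Without AGEs library 3 the count above control was 22 of 41, against 15.7% of all genes, and without AGEs library 2 it was 21, against 15.3%. The median log2 fold change of the 41 was 0.41, and DESeq2 called 11 higher and 0 lower. The AGEs libraries differed widely among themselves in these genes. Cxcl1, a neutrophil-attracting chemokine gene, was at 12.8, 12.7 and 12.6 CPM in control and 36.5, 240.2 and 87.1 CPM in AGEs (log2 fold change 3.25, SE 0.56, adjusted p = 0.117). Its control libraries were almost the same, and AGEs library 2 was the highest by far. Cxcl5 was at 3.74, 3.71 and 2.92 CPM in control and 16.8, 163 and 30.3 CPM in AGEs (4.34, adjusted p = 0.124). Cxcl2 was at 1.65, 2.09 and 1.56 CPM in control and 3.30, 11 and 7.65 CPM in AGEs (2.05, adjusted p = 0.14). Without AGEs library 1, the call threshold was passed by Cxcl1 (adjusted p = 0.00856), Csf3 (0.00469), Ccl2 (0.000272) and Ccl20 (0.0289), and the log2 fold change of Cxcl2 passed it too (0.00868). Without AGEs library 2, Cxcl1 passed it (0.0378). The log2 fold change of Cxcl5 passed without AGEs library 1 (adjusted p = 0.0325) or 2 (0.00916). Without AGEs library 3, Cxcl1 (adjusted p = 0.137) and Csf3 (0.113) did not pass.

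Other mediators varied between the AGEs libraries as well. Csf3, which encodes granulocyte colony-stimulating factor, was at 0.126, 0.0581 and 0.0671 CPM in control and 0.642, 4.55 and 2.18 CPM in AGEs (log2 fold change 4.85, SE 0.70, adjusted p = 0.0623). Ccl20, a chemokine gene for cells with the receptor CCR6, was at 2.36, 2.31 and 2.73 CPM in control and 6.51, 24.1 and 10.9 CPM in AGEs (2.49, adjusted p = 0.117). Ccl2, the monocyte-attracting chemokine gene, was at 41.6, 40.8 and 33.8 CPM in control and 64.2, 168 and 192 CPM in AGEs (1.87, adjusted p = 0.12), and was highest in AGEs library 3. For the acute-phase gene Saa3 the log2 fold change of 3.81 (SE 1.01, adjusted p = 0.262) rested on library 2, with 2.78, 36.5 and 2.16 CPM in AGEs and 0.683 to 1.27 CPM in control. Nos2, the inducible nitric oxide synthase gene, was at 0.887, 3.69 and 1.19 CPM in AGEs and 0.131 to 0.319 CPM in control (2.95, adjusted p = 0.208). The cyclooxygenase gene Ptgs2 was at 41.6, 39.9 and 36.2 CPM in control and 56.3, 52.1 and 76.6 CPM in AGEs (0.65, adjusted p = 0.203). Nfkb1, which encodes the p105 precursor of an NF-kB subunit, was at 94.6, 92.7 and 88.5 CPM in control and 109.6, 136 and 168 CPM in AGEs (0.58, adjusted p = 0.233). The feedback inhibitors Nfkbia and Tnfaip3 overlapped between the groups, at 18.4 to 25.4 and 6.82 to 16.8 CPM in AGEs and 19.2 to 19.9 and 13.1 to 14.2 CPM in control. Leukocyte markers varied between the same libraries. Ptprc, the pan-leukocyte marker CD45, had 0, 4 and 24 counts in control and 56, 51 and 0 counts in AGEs. Lyz2, a lysozyme gene of myeloid cells, had 20, 27 and 139 counts in control and 200, 356 and 0 counts in AGEs. Tyrobp, a signalling adaptor of myeloid cells, had 0 counts in each control library and 16, 17 and 0 in AGEs. So these 3 markers were higher in AGEs libraries 1 and 2 than in control and at 0 in library 3. Not all leukocyte markers followed them, since 8 of the 12 tested had an estimate above 0 and 4 below. Cd68 was at 21.5, 23.2 and 19.9 CPM in control and 18.1, 20.4 and 9.51 CPM in AGEs (log2 fold change −0.43, adjusted p = 0.509). The part of leukocyte RNA in the chemokine levels of the AGEs libraries was not tested. Ptprc, Lyz2 and Tyrobp were chosen after their values were seen.

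The promoters of Cxcl1 and Cxcl2 are shown because these neighbouring chemokine genes were above control in every AGEs library and hold the same 11 letters at the kappa B site, the motif bound by NF-kB. Each is the 250 bases before the RefSeq start (GRCm38.p6, plus strand), chr5:90890995-90891244 for Cxcl1 and chr5:90903649-90903898 for Cxcl2, with the matches in capitals.
Cxcl1: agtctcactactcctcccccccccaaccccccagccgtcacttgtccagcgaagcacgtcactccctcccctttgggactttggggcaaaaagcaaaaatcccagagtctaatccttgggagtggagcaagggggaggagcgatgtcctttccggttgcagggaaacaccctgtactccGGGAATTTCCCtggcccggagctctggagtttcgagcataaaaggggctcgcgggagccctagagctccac
Cxcl2: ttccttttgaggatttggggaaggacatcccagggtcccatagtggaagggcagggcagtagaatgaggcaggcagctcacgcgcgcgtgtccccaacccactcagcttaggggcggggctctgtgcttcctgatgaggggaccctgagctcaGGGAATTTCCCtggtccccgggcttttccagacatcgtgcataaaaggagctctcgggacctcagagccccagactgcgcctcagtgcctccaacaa
The motif was written as GGGA and TTCC with 2 bases of any kind between them, and searched on both strands. In each promoter a match on the plus strand and one on the minus strand overlap, from 71 to 61 bases before the start in Cxcl1 and from 97 to 87 in Cxcl2. These letters were present in 1.21% of the promoter windows and in 0 of the 11 called genes with a window, which says nothing of the factor. Both promoters were shown for holding the site, and it was not counted over the other members of the list.

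Among AGE receptors, S100 ligands and the enzymes that clear glyoxals, 0 of 23 members tested were called. In every library 0 were above and 6 (26.1%) below control, against 9.47% and 9.73% of all genes, and the median log2 fold change was −0.09. Without AGEs library 2 the count below control was 11, against 15.8% of all genes. Ager, the RAGE gene, was at 1.05, 0.494 and 0.268 CPM in control and 0.856, 0.724 and 0.947 CPM in AGEs (log2 fold change 0.48, SE 0.51, adjusted p = 0.744), so its groups overlapped, at 16 to 67 counts per library. Lgals3, which encodes the AGE-binding lectin galectin-3, was at 1008, 933 and 1097 CPM in control and 860, 995 and 928 CPM in AGEs (−0.13, adjusted p = 0.601). Ddost, a subunit of the oligosaccharyltransferase that is also described as an AGE receptor, was at 408, 390 and 456 CPM in control and 349, 361 and 353 CPM in AGEs (−0.24, adjusted p = 0.315). Prkcsh, its partner in that role, overlapped between the groups (−0.12, adjusted p = 0.625). Of the glyoxalase enzymes, Glo1 was at 39.6, 39.7 and 39.9 CPM in control and 41.3, 39.4 and 38.0 CPM in AGEs, while Hagh was at 90.4, 91.4 and 98.7 CPM and 76.0, 83.7 and 77.1 CPM (−0.24, adjusted p = 0.359). The calcium-binding S100a11 was at 258, 255 and 260 CPM in control and 207, 225 and 227 CPM in AGEs (−0.23, adjusted p = 0.306).

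Of 36 podocyte markers tested 0 were called, 6 (16.7%) lay above and 5 (13.9%) below control in every library, against 9.47% and 9.73% of all genes, and the median log2 fold change was 0.14. Without AGEs library 2 or 3 the count above control was 12 or 11, against 15.3% or 15.7% of all genes. Synpo, the actin-associated synaptopodin gene, was at 22.0, 25 and 20.2 CPM in control and 8.53, 7.75 and 5.45 CPM in AGEs. Its log2 fold change of −1.63 (SE 0.28, adjusted p = 0.117) did not pass, while DESeq2 and a fit of the 6 libraries alone (adjusted p = 0.0432) called it lower. The high glucose libraries, which share the estimate of the spread, held 53.4 ± 20.4 CPM (SD, n = 3) of Synpo. Podxl, the podocalyxin gene, was at 18.8, 18.0 and 21.0 CPM in control and 25.5, 26.4 and 33.2 CPM in AGEs (0.56, adjusted p = 0.233). Rhpn1 was at 8.83, 7.73 and 11.9 CPM in control and 5.66, 6.37 and 5.13 CPM in AGEs (−0.73, adjusted p = 0.232). Nphs1, the nephrin gene of the slit diaphragm, was at 47.5, 5.67 and 12.2 CPM in control and 68.9, 102 and 6.98 CPM in AGEs (1.45, adjusted p = 0.646), so it varied as much within a group as between groups, and the pseudogene Rps12-ps4 shares its position on the other strand. Cd2ap overlapped between the groups, with 110.1 CPM in control library 3 and 362 and 415 CPM in the other 2. Actn4 overlapped as well (0.14, adjusted p = 0.645).

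Among 51 genes of the extracellular matrix and TGF-beta signalling 1 rose and 0 fell, 12 (23.5%) lay above and 3 (5.88%) below control in every library, against 9.47% and 9.73% of all genes, and the median log2 fold change was 0.20. Without AGEs library 2 the count above control was 21 of 51, against 15.3% of all genes. The called member was Nid1, which encodes nidogen, a linker of laminin and collagen in basement membranes. Nid1 was at 4.35, 4.68 and 5.33 CPM in control and 11, 10.5 and 10.7 CPM in AGEs, and rose 2.24-fold (log2 fold change 1.17, SE 0.14, adjusted p = 0.0161). Its AGEs values were nearly equal, but the call was lost in 4 of the 6 leave-outs, without control library 1 or 2 or AGEs library 1 or 2 (adjusted p up to 0.0847). Nid1 (ENSMUSG00000005397) lies on chromosome 13 from 13437551 to 13512269, plus strand. The laminin chains Lamc1 and Lamb1 had log2 fold changes of 0.37 and 0.36 (adjusted p = 0.255 and 0.292). Col4a3, a collagen chain of the glomerular basement membrane, was at 6.96, 6.26 and 6.55 CPM in control and 14.1, 9.20 and 16.6 CPM in AGEs (1.01, adjusted p = 0.334). Smad6, an inhibitor of BMP signalling, was at 4.44, 3.40 and 4.68 CPM in control and 1.93, 2.74 and 1.98 CPM in AGEs (−0.91, adjusted p = 0.155). The profibrotic genes Fn1 and Ccn2 overlapped between the groups (adjusted p = 0.488 and 0.891). Ccn2 was at 308, 253 and 438 CPM in AGEs, highest in library 3.

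Of 40 genes of actin and focal adhesion 0 were called, and 12 of the 40 lay above and 0 below control in every library, against 9.47% and 9.73% of all genes, with a median of 0.14. The integrin gene Itgav was at 23.1, 26.3 and 54.8 CPM in control and 81.1, 77 and 94.5 CPM in AGEs (log2 fold change 1.28, SE 0.32, adjusted p = 0.255). The median difference of AGEs library 3 from AGEs libraries 1 and 2 over these 40 genes was 0.22 on the log2 scale, and it was 0.24 over the matrix list.

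Mitochondrially encoded genes were above control in every library for 7 of 13 members (53.8%, against 9.47% of all genes), with 0 called and a median log2 fold change of 0.27. The complex I subunit mt-Nd4l was at 327, 259 and 269 CPM in control and 514, 399 and 335 CPM in AGEs (0.54, adjusted p = 0.302). Their summed level, in CPM without TMM factors, was 25384 to 27924 in control and 28765 to 31479 in AGEs. Nuclear-encoded subunits of oxidative phosphorylation had the opposite sign, with 1 of 39 above and 8 (20.5%) below control in every library, against 9.47% and 9.73% of all genes, and a median of −0.12. Their summed level, also without TMM factors, was 7997 to 8503 in AGEs and 8565 to 9429.6 in control. The nearest values were those of AGEs library 3 (TMM factor 0.935) and control library 2 (0.974). Division by these factors puts AGEs library 3 above control library 2, so the groups overlap on the TMM scale. Without AGEs library 3, 11 of the 13 mitochondrially encoded genes lay above control, against 15.7% of all genes, and 19 of the 39 nuclear-encoded genes below, against 15.9%.

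**Figure D4:**
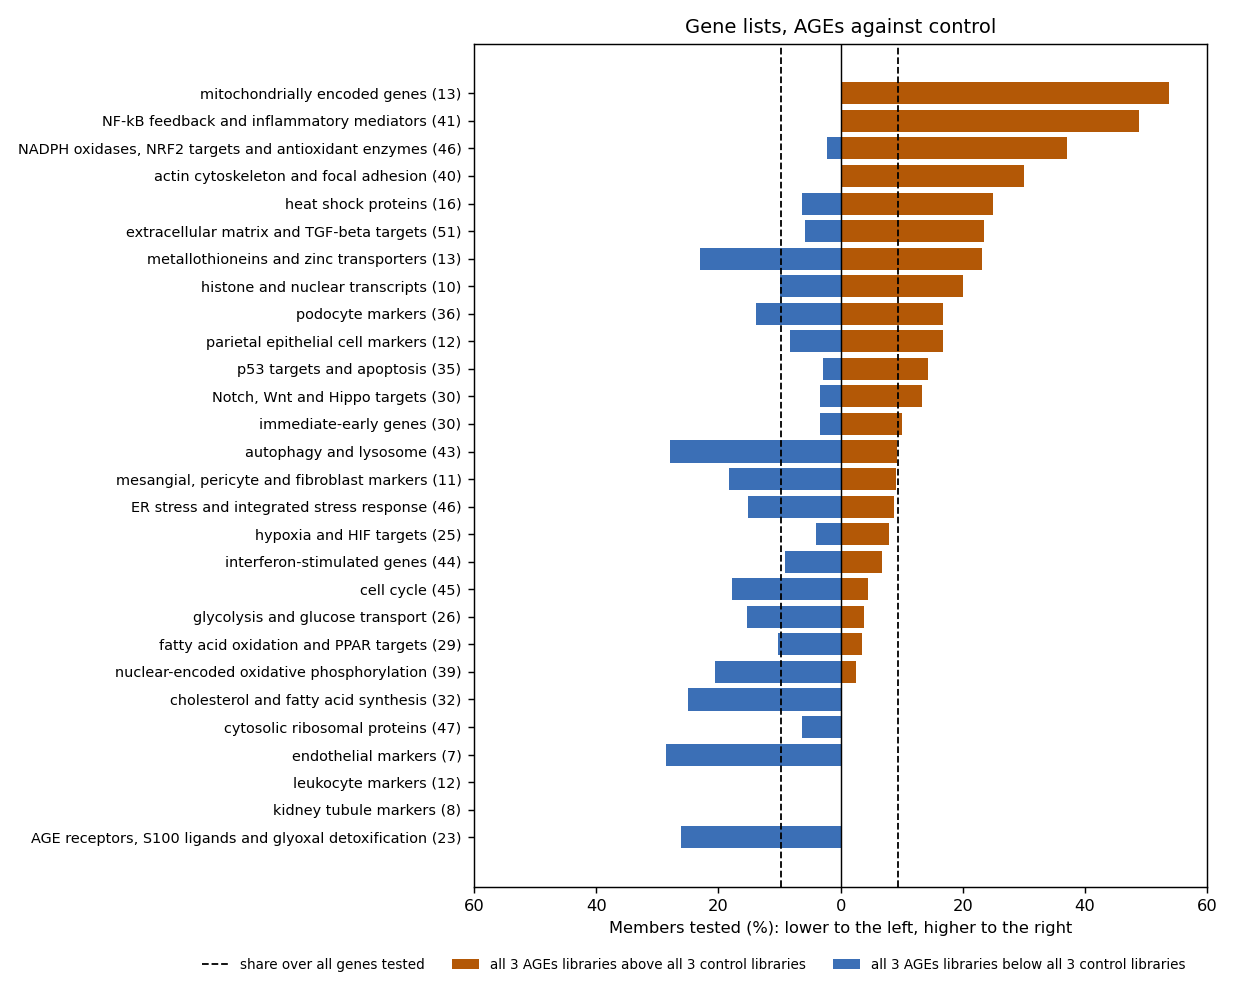
Share (%) of the tested members of each of 28 gene lists for which the 3 AGEs libraries lie above (right) or below (left) the 3 control libraries, with the number of members in parentheses and the shares over all genes, 9.47% and 9.73%, as dashed lines. The longest bars to the right are the mitochondrially encoded, NF-kB and NRF2 lists, and the longest to the left are the small endothelial list, autophagy and lysosome, and the AGE receptor list.

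In the other lists 0 members were called by edgeR, and their counts above and below control in every library are to be read against 9.47% and 9.73% of all genes. Of 43 autophagy and lysosome genes 12 (27.9%) lay below and 4 above control in every library, with a median of −0.07. Among them Map1lc3a, an autophagosome protein gene, was at 71.7, 64.0 and 74.1 CPM in control and 52.3, 55.5 and 51.3 CPM in AGEs (adjusted p = 0.216), while the estimate for the autophagy receptor gene Sqstm1 was 0.25 (adjusted p = 0.29). Of 32 genes of cholesterol and fatty acid synthesis 8 (25%) lay below and 0 above, with a median of −0.06. Fdps, a farnesyl diphosphate synthase gene, was at 861, 820 and 871 CPM in control and 605, 669 and 740 CPM in AGEs (−0.34, adjusted p = 0.255), and the lipogenic regulator Srebf1 at 201, 200 and 214 CPM and 148, 170 and 175 CPM (−0.32, adjusted p = 0.232). Of 46 genes of ER stress 4 lay above and 7 below, with a median of −0.04. Ddit3, which encodes the stress-induced factor CHOP, overlapped between the groups (0.02, adjusted p = 0.948), and Atf5 was at 143, 140 and 163 CPM in control and 107, 119 and 115 CPM in AGEs (−0.39, adjusted p = 0.216). Of 45 cell cycle genes 2 lay above and 8 below, among them the ribonucleotide reductase gene Rrm2 (−0.33, adjusted p = 0.255). Of 35 p53 targets and apoptosis genes 5 lay above and 1 below, and the kinase gene Plk2 was at 371, 357 and 377 CPM in control and 477, 500.1 and 495 CPM in AGEs (0.41, adjusted p = 0.12). For ribosomal proteins 0 of 47 lay above and 3 below (median −0.11), and for 44 interferon-stimulated genes the counts were 3 and 4 (median −0.13), both near or under the shares of all genes, but without AGEs library 2 the counts below control were 20 of 47 ribosomal and 13 of 44 interferon-stimulated genes, against 15.8% of all genes. Without AGEs library 3, 16 of the 32 genes of cholesterol and fatty acid synthesis lay below control, against 15.9% of all genes. The other shares are in the plot of gene lists. Of the parietal epithelial markers 2 lay above and 1 below, with Cd44 at 84.7, 77.1 and 75.5 CPM in control and 104, 131 and 114 CPM in AGEs (0.56, adjusted p = 0.117).

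Set beside the high glucose libraries, the 15 called genes fell into different patterns. AGEs and high glucose are compared through the same 3 control libraries, so the values are given side by side. A test of AGEs against high glucose, which uses the AGEs libraries again, called 8 of the 15, against 39.9% of all genes (7053). Gsta1 had a mean of 13.7 CPM in AGEs, 0.608 CPM in high glucose and 1.13 CPM in control, and Gsta3 had 12.2, 2.24 and 1.35 CPM. Gsta4, by contrast, had 71.6, 53.5 and 13.3 CPM, and Nqo1 had 55.1, 49.6 and 26.0 CPM. Mt1 had 324, 379 and 551 CPM and Mt2 had 406, 311 and 753 CPM. Nanp and Dleu2 had 0 and 2.33 CPM in AGEs against 8.74 and 20.6 CPM in high glucose, while Zfp784 was low in both, at 0.0646 and 0.165 CPM. Between AGEs and high glucose, Gsta1 (log2 difference 4.49, adjusted p = 2.76e-05), Gsta3 (2.45, 0.000105), Fgfr1op (1.51, 3.86e-05) and Eps8 (0.86, 0.000194) were higher in AGEs. Mt2 (0.39, 0.0249) and Cd2bp2 (0.33, 0.00731) were also higher in AGEs, and Nanp (0 counts in AGEs, adjusted p = 1.97e-06) and Dleu2 (−3.15, 4.83e-06) were lower. Gsta4, Nqo1, Pgd, Suclg2, Nid1, Mt1 and Zfp784 did not pass in that test (adjusted p = 0.0514 to 0.458).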

How the data were processed

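RNA was sequenced from 9 libraries, grouped by the treatment in the labels. Gene counts and FPKM (fragments scaled to gene length and depth) are the authors' deposited values, in 1 table on GRCm38 gene models. The submitters' processing notes name cutadapt 1.9 and FastQC. No aligner, counting tool or strand setting is named in the labels used here. Totals were 62193640 to 73427057 counts in the 6 AGEs and control libraries.

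The counts were tested as deposited with the edgeR 4.0.16 quasi-likelihood test in R 4.3.3, with TMM scaling, a filter on low counts and 1 spread estimated over all 9 libraries. A gene was called at a Benjamini-Hochberg adjusted p under 0.05 over all 17680 genes tested. Library departures used log2 CPM with a prior count of 2. Alternatives were RLE scaling, DESeq2 1.42.0, other filters, the 6 libraries alone, a replicate block, limma 3.58.1 with voom and sample weights, robust edgeR, limma on log2(FPKM + 1) and log2(FPKM + 0.1) from the deposited FPKM, and each library left out. The scripts were tested on simulated data.

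The genes named were those called, those nearest the threshold whose groups did not overlap, up to 3 of each list by smallest p, a set of podocyte, receptor and fibrosis genes, and the 20 in which AGEs library 3 departed most. Further list members (such as Gclm, Gclc, Slc7a11, Cat, Abcc1, Hmox1, Txnrd1, Cxcl2, Cxcl5, Saa3, Nos2, Ptgs2, Nfkb1, Col4a3, Lamb1 and Slc30a1), regulators and marker genes were named after their values were seen. The comparison, its rule and the gene lists were chosen with earlier results of these data known. Promoter sequences are those of RefSeq (GRCm38.p6). A few list members are not reported here.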

Additional observations from a re-analysis of the deposited data

How the results depend on the processing

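RLE scaling gave the same 9 higher and 6 lower genes in number as TMM, and DESeq2 gave 196 and 129. Leaving out 1 library at a time gave 6 to 14 higher and 4 to 12 lower genes. The values showed no clear pairing by replicate number. Deviations of same-numbered AGEs and control libraries correlated at −0.024, −0.069 and 0.0871, and only replicate 3 correlated best with its own number. With so few libraries a group, these correlations cannot settle whether the libraries were handled in pairs. With the replicate number as a block 3 genes were higher and 2 lower. The count of genes at least 2-fold apart between AGEs library 3 and AGEs libraries 1 and 2, 2438 in the report, was 4605 with no filter on low counts, 589 at a mean of at least 1 CPM, 195 on log2(FPKM + 1) and 1054 on log2(FPKM + 0.1), since these settings change how many low genes can pass.

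Among 86 named genes followed through the alternatives, the signs of Ccn2, Ddit3 and Glo1, none of them called, were not stable. Some genes in which AGEs library 3 departed most lay outside these 86 and also changed sign. Over the alternatives the log2 fold change ran from −3.14 to 0.25 for Apob, −3.34 to 0.16 for Spry1 and −0.73 to 0.28 for Bola1. It ran from −0.32 to 1.22 for Muc2 and −0.19 to 1.74 for Fbxo34. The log2 fold change of Ccn2 (0.13) was −0.062 with voom weights and −0.11 to 0.30 with 1 library left out, the lowest without AGEs library 3. The log2 fold change of Ddit3 (0.02) was −0.036 with voom weights, −0.0047 and −0.0048 on the FPKM scales with 1 and 0.1 added, and −0.071 (without AGEs library 3) to 0.076 with 1 library left out. The log2 fold change of Glo1 (−0.01) was 0.0049 with voom weights and −0.039 to 0.021 (without AGEs library 3) with 1 library left out. The cause was not tested. Of the other values for these 86 genes, 1247 kept direction and side of the threshold, 66 passed it newly and 53 lost it. Counts of list members that did not overlap without 1 AGEs library were added after seeing the data. With 3 libraries a group, the smallest called difference was that of Pgd, 1.55-fold.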
